A study of Homo sapiens with 44 samples.

Results

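TNF and IL-1β, a pair of cytokines that activate the transcription factor NF-κB, were compared directly in bulk RNA-seq of Ccd-18Co, an established fibroblast line from normal human colon. The comparison used the 4 libraries titled TNF and the 4 titled IL1B, 8 of 44 libraries in the experiment, and was chosen by title alone. Cells were kept in serum-free medium for 72 h and stimulated for 24 h with TNF at 10 ng/ml or with IL-1β at 0.1 ng/ml. The labels and methods give this IL-1β dose, a legend of the study gives a lower one, and the cytokine and its dose cannot be told apart in any difference below. A group of 4 unstimulated libraries gave the baseline, and libraries stimulated for the same time with IFNα, IFNγ or IL-17A at 10 ng/ml (4 each) served to place the separating genes. All libraries are of a single cell line, no source states that replicates were separate cultures, and p-values therefore measure the spread between these libraries.

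TNF signals mainly through the receptor TNFR1 and the adaptor TRADD, with RIPK1 and the ubiquitin ligases BIRC2 and BIRC3. IL-1β binds IL1R1 with IL1RAP and signals through MyD88, IRAK kinases and TRAF6. Both routes end in activation of IκB kinase and of MAP kinases, and in gut fibroblasts both are known to raise chemokines, IL-6 and matrix metalloproteinases, which makes the genes that separate them of interest.

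Total counts were 1254254 to 1815955 for the TNF libraries, 1620541 to 2095807 for IL-1β and 1365019 to 1725354 for unstimulated cells. Of 14 fibroblast markers, 13 averaged above 10 CPM (counts scaled to a common library size), and their summed level was 22290 to 28750 CPM with TNF and 25000 to 33550 CPM with IL-1β. Of the epithelial markers 4 of 10, of the leukocyte markers 5 of 10 and of the endothelial markers 4 of 8 were at 0 in all 12 libraries, and the sum of each of these lists was at most 23.5 CPM in any TNF or IL-1β library. The smooth muscle markers summed to 350.3 to 527 CPM with TNF and 228 to 396 CPM with IL-1β. Most of this was ACTG2, with means of 407 and 277 CPM, the only 1 of the 6 to average above 10 CPM. Unstimulated replicate 4 stood above the other unstimulated libraries in inflammatory transcripts such as CXCL1 (166 against 28.1 to 44.1 CPM). It does not enter the direct contrast, but it does enter the estimate of spread, and without it 45 genes were higher with TNF and 66 with IL-1β. In bulk RNA, fewer cells of a kind and less RNA per cell cannot be told apart.

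Promoters of chemokine genes of the list furthest towards IL-1β are shown because the members lie in a single cluster and carry closely similar NF-κB motifs. Their fitted differences between the cytokines varied in size, and genes were not tested against each other. CXCL8, CXCL6, CXCL1, CXCL5, CXCL3 and CXCL2 lie within 359 kb of chromosome 4 (73740519 to 74099196, GENCODE release 44 on GRCh38). The windows below run 5′ to 3′ from 120 to 41 bases before the start of the RefSeq transcript (GRCh38.p14), and capitals mark matches on either strand to an NF-κB motif of 10 bases (GGG, any NN, then TTTCC) or of 9 bases (GGGNNTTCC), which can overlap each other. They lie at chr4:73869273-73869352 on the plus strand for CXCL1, chr4:74099236-74099315 on the minus strand for CXCL2, chr4:74038730-74038809 on the minus strand for CXCL3, chr4:73836558-73836637 on the plus strand for CXCL6 and chr4:73998718-73998797 on the minus strand for CXCL5.
CXCL1: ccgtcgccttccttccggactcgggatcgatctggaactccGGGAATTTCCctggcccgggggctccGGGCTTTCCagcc
CXCL2: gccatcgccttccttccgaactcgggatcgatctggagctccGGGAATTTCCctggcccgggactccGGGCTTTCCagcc
CXCL3: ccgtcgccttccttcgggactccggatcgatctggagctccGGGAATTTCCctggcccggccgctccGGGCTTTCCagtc
CXCL6: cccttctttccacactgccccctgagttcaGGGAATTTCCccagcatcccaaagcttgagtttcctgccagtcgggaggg
CXCL5: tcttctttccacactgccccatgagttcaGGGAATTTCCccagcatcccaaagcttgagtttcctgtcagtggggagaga
CXCL1, CXCL2 and CXCL3 each held a GGGAATTTCC and a GGGCTTTCC, and CXCL6 and CXCL5 a GGGAATTTCC alone. Aligned on this motif, CXCL1 was identical to CXCL3 at 93.3% of 75 positions and to CXCL2 at 84%, and CXCL6 was identical to CXCL5 at 96%, whereas CXCL1 matched CXCL6 at 44%. The CXCL8 window held neither motif in these letters. Of this nearly identical pair CXCL6 was called between the cytokines and CXCL5 was not, and the difference between these genes was not tested.

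Outside this cluster, windows are shown for IL6, which was higher with IL-1β, and for UBD, IL32 and CXCL10, which were higher with TNF. They lie at chr7:22727080-22727159 on the plus strand for IL6, chr6:29559773-29559852 on the minus strand for UBD and chr16:3065283-3065362 on the plus strand for IL32 over the same distances, and at chr4:76023598-76023727 on the minus strand for CXCL10 from 230 to 101 bases before the start, where capitals also mark the interferon-stimulated response element (TTTC, any NN, then TTTC), here on the other strand.
IL6: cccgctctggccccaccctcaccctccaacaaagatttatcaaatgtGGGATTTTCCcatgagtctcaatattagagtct
UBD: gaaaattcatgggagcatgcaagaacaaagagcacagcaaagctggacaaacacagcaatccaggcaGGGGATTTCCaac
IL32: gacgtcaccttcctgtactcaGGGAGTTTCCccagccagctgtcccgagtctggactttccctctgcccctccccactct
CXCL10: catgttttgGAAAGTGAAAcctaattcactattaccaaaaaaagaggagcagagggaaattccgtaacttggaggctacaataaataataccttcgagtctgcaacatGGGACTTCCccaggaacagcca
The windows of UBD and IL32 were chosen for holding the motif of 10 bases, and that of CXCL10 was placed to span its motifs. That the windows shown hold NF-κB motifs for genes of both directions is therefore partly set by this choice. In the 250 bases upstream, at least 1 promoter window held either NF-κB motif for 10 of 29 TNF-higher genes with a RefSeq window (34.5%), 10 of 57 IL-1β-higher genes (17.5%) and 896 of 7824 genes tested (11.5%). Among all 35116 windows the share was 6.97%, for the motif of 10 bases alone 1.73%, for that of 9 bases 5.78% and for the response element 3.02%. The response element was held by 3 of the 29 TNF-higher genes (10.3%) and 4 of the 57 IL-1β-higher genes (7.02%), against 286 of 7824 genes tested (3.66%). Genes had 1.59, 1.7 and 1.47 windows on average in the TNF-higher, IL-1β-higher and tested sets, and these shares are descriptions of letters.

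The TNF and IL-1β libraries lay closer to each other than either did to unstimulated cells. Distances were taken in log2 CPM of the 500 genes with the largest variance over all 44 libraries. The Euclidean distance between group means was 22.87 between TNF and IL-1β, 43.67 between TNF and unstimulated, and 43.46 between IL-1β and unstimulated. The first of these distances exceeded those of the other divisions of the 8 libraries into 4 and 4 (exact permutation test over 35 divisions, one-sided p = 0.0286, the smallest p this design allows). The principal components used the 500 genes of largest variance in the 12 libraries plotted, a choice that favours separation of the groups shown. On the plot, PC1 (45.7% of variance) held the stimulated libraries between 10.72 and 18.2 and the unstimulated ones between -36.38 and -23.73. PC2 (11.5%) separated the cytokines, with the TNF libraries between 4.543 and 23.36 and the IL-1β libraries between -13.48 and -10.86.

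**Figure D1:**
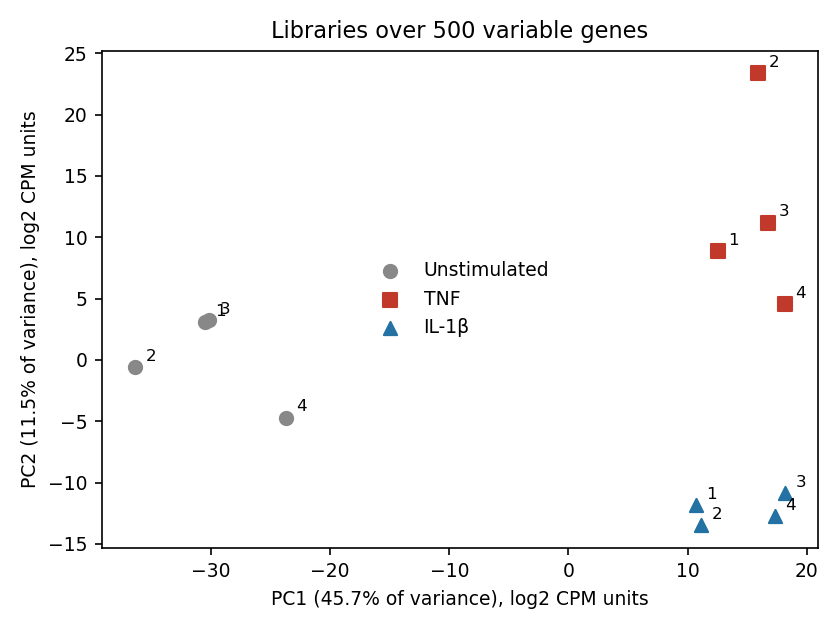
Principal components of log2 CPM over the 500 genes of largest variance in the 12 libraries shown. Each point is a library labelled with its replicate number, in log2 CPM units. The TNF squares lie at 4.54 or above on PC2 and the IL-1β triangles at -10.86 or below, while on PC1 the groups overlap with each other and lie apart from the unstimulated circles.

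At a Benjamini-Hochberg adjusted p under 0.05 in edgeR's quasi-likelihood test, 109 of 9513 genes differed between the cytokines (1.15%), of which 43 were higher with TNF (0.452%) and 66 higher with IL-1β (0.694%). The median log2 difference (TNF minus IL-1β) was 1.09 in the former, -1.15 in the latter and -0.00204 over all genes tested. With an absolute log2 difference above 1.5 as well, 35 genes remained (0.368%), 17 higher with TNF (0.179%) and 18 higher with IL-1β (0.189%). The 4 TNF libraries did not overlap the 4 IL-1β libraries for 40 of the 43 and 62 of the 66, against 760 of all genes tested (7.99%). At an unadjusted p under 0.05 there were 1091 genes. Where a call is said to be lost below, it missed the threshold in an alternative, such as a fit of the 8 TNF and IL-1β libraries or of these with the 4 unstimulated ones (the fits of 8 and of 12). Leaving out 1 library gave 18 to 40 TNF-higher and 35 to 63 IL-1β-higher genes, with the lowest counts of both without IL-1β replicate 2. The counts also fell more than 1.5-fold without TNF replicate 3 (26 and 38), for TNF-higher genes without IL-1β replicate 3 (24) or 4 (28), and for IL-1β-higher genes without IL-1β replicate 1 (41). Of the 109 calls, 35 were kept in all 15 alternative fits (11 TNF-higher, 24 IL-1β-higher).

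The chemokines that attract neutrophils through the receptors CXCR1 and CXCR2 lay further towards IL-1β than any other gene list described. Each of the 6 was raised by each cytokine against unstimulated cells, in comparisons that share the unstimulated libraries and in which TNF raised 5.37% and IL-1β 3.46% of genes tested. Between the cytokines 4 of the 6 were called, all higher with IL-1β (against 0.694% of genes tested), and the median log2 difference of the 6 was -2.58. CXCL1 held 450.5, 489, 563 and 535 CPM in TNF replicates 1 to 4 and 7406, 6624, 6608 and 6775 CPM with IL-1β, from 44.1, 29.2, 28.1 and 166 CPM in unstimulated cells. Its lowest IL-1β library thus exceeded the highest TNF library more than 10-fold, and the fitted level was 13.5-fold higher with IL-1β (log2 difference -3.75, SE 0.38, adjusted p = 4.31e-09). CXCL6 stood at 1383, 1230, 1020 and 1230 CPM with TNF and at 8727, 8416, 5770 and 5951 CPM with IL-1β, where replicates 1 and 2 were above replicates 3 and 4 (5.93-fold, log2 difference -2.57, SE 0.26, adjusted p = 4.31e-09). In both genes every IL-1β library exceeded every TNF library.

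CXCL2 had 72.7, 110.2, 148 and 199.8 CPM with TNF and 869, 762, 1079 and 1247 CPM with IL-1β (7.42-fold, log2 difference -2.89, SE 0.53, adjusted p = 0.00117). CXCL3 had 455, 468, 751 and 815 CPM and 3490, 2797, 4167 and 4478 CPM (5.99-fold, log2 difference -2.58, SE 0.55, adjusted p = 0.00647). For each gene the lowest IL-1β library was over 3 times the highest TNF library. CXCL1, CXCL2 and CXCL3 are near-identical paralogs between which reads may be split, so their separate levels are uncertain, although all moved the same way. CXCL5 showed the same order without passing the test, at 357, 399.6, 434 and 724 CPM with TNF and 1179, 1271, 1377 and 1619 CPM with IL-1β and with no overlap (log2 difference -1.51, SE 0.42, adjusted p = 0.0584). CXCL8, which encodes IL-8, overlapped between the cytokines, at 12190, 16720, 15000 and 23010 CPM and 16490, 16480, 21890 and 22930 CPM, and the 95% interval of its log2 difference was -1.68 to 1.24. The CXCL2 call was lost with DESeq2 (adjusted p = 0.128). CXCL5 passed in the fit of 8 (adjusted p = 0.000298), with all genes of any count (3.03e-10), with the replicate number as a block (0.00365), without TNF replicate 4 (0.0441) and without unstimulated replicate 4 (0.0324).

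**Figure D2:**
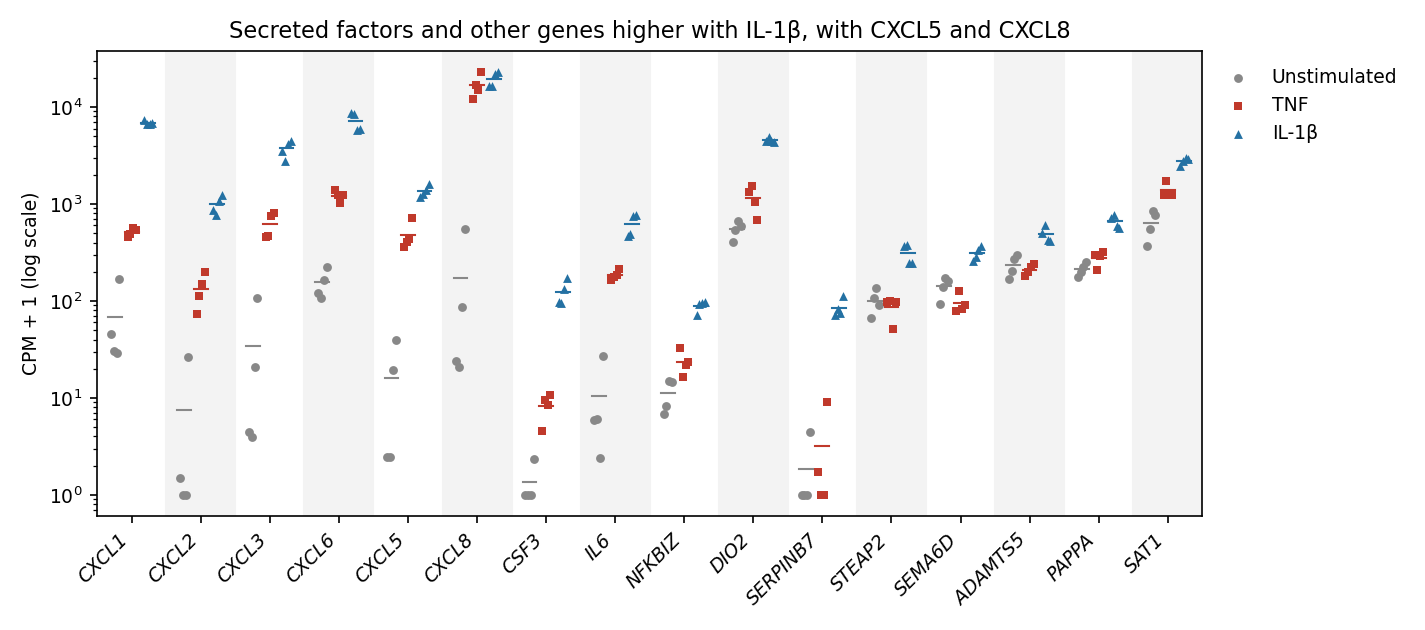
Level of 16 genes in each library, as CPM + 1 on a log axis, with 4 points per group (grey circles unstimulated, red squares TNF, blue triangles IL-1β) and a bar at each group's mean. The IL-1β triangles lie above the TNF squares in every gene shown except CXCL8, where the groups overlap.

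Other secreted factors separated in both directions. Of 16 cytokines and growth factors tested, 2 were higher with IL-1β (against 0.694% of genes tested) and 2 with TNF (against 0.452%). TNF raised 11 of the 16 (against 5.37%) and IL-1β 10 (against 3.46%). CSF3, which encodes granulocyte colony-stimulating factor, the growth factor of neutrophils, held 3.53, 8.61, 7.50 and 9.64 CPM with TNF and 96.9, 93.5, 132 and 169.9 CPM with IL-1β (log2 difference -4.05, SE 0.66, adjusted p = 0.00032). Its TNF libraries stayed below 10 CPM, while the lowest IL-1β library held 93.5 CPM. IL6 stood at 164, 177, 186 and 212 CPM with TNF and at 463, 490.5, 754 and 778 CPM with IL-1β, without overlap and with IL-1β replicates 3 and 4 above 1 and 2 (3.36-fold, log2 difference -1.75, SE 0.42, adjusted p = 0.0223). The IL6 call was lost without TNF replicates 1, 2 or 3 or IL-1β replicates 3 or 4 (adjusted p 0.0668 to 0.0872) and with DESeq2 (adjusted p = 0.0844).

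NFKBIZ was the only member of 12 tested NF-κB subunits and feedback inhibitors to differ, against 1.15% of genes tested. It encodes IκBζ, a nuclear cofactor that NF-κB needs at a subset of its target genes, IL6 among them. It held 5.88, 7.29, 14.1 and 13.7 CPM in unstimulated cells, 31.8, 15.5, 21.0 and 22.5 CPM with TNF and 70.1, 92.1, 95.3 and 97.3 CPM with IL-1β, so that the IL-1β libraries were at least 70 CPM and the TNF libraries at most 32 CPM (3.88-fold, log2 difference -1.96, SE 0.34, adjusted p = 0.000609). Against unstimulated cells its log2 difference was 1.17 with TNF and 3.12 with IL-1β. The inhibitor NFKBIA, by contrast, stood at 399, 354, 396 and 357 CPM with TNF and 255, 239, 288 and 298 CPM with IL-1β, a log2 difference of 0.48 that did not pass (adjusted p = 0.438). TNFAIP3, the ubiquitin-editing inhibitor A20, had 62.8, 34.5, 45.8 and 65.3 CPM and 18.7, 34.5, 35.6 and 23.4 CPM (adjusted p = 0.616). The median log2 difference of the 12 was 0.655, above the -0.00204 of all genes tested.

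A further set of genes was raised by IL-1β, and less or not detectably by TNF, although the rise of AKR1C2 did not pass. DIO2, the deiodinase that activates thyroid hormone, rose with each cytokine, from 405, 537, 671 and 594 CPM to 1318, 1543, 1035 and 689 CPM with TNF and 4442, 4953, 4437 and 4345 CPM with IL-1β (3.97-fold, log2 difference -1.99, SE 0.26, adjusted p = 3.69e-06). SERPINB7, a protease inhibitor of the serpin family, was near 0 in 3 TNF libraries and at 8.03 CPM in TNF replicate 4, against 70.6, 80.9, 73.7 and 112 CPM with IL-1β (log2 difference -5.05, SE 1.03, adjusted p = 0.00683). STEAP2, a metalloreductase, held 96.0, 99.9, 50.3 and 95.9 CPM and 371, 377, 243 and 246 CPM (log2 difference -1.85, SE 0.36, adjusted p = 0.00247). SEMA6D, a transmembrane semaphorin, held 77.7, 126, 81.0 and 88.9 CPM and 258, 281, 338 and 369.7 CPM (log2 difference -1.74, SE 0.26, adjusted p = 5.58e-05). In STEAP2 and SEMA6D the TNF libraries lay within or below the unstimulated range of 65.6 to 136 CPM and 92.5 to 171 CPM, whereas every IL-1β library lay above it. AKR1C2, an aldo-keto reductase whose reads may be shared with near-identical family members, held 2.82, 4.31, 9.00 and 15.0 CPM with TNF and 40.9, 42.4, 27.3 and 31.8 CPM with IL-1β (log2 difference -2.14, SE 0.57, adjusted p = 0.0432). Its IL-1β libraries were all above its TNF and unstimulated ones, but the log2 difference of IL-1β from unstimulated cells, 1.62, did not pass (adjusted p = 0.0633). The AKR1C2 call was lost without any 1 of the 8 libraries except TNF replicate 4 (adjusted p 0.061 to 0.177). The SERPINB7 call was lost with DESeq2 (adjusted p = 0.254).

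ADAMTS5, PAPPA and SAT1 were also higher with IL-1β. ADAMTS5, a protease that cleaves aggrecan and versican, stood at 168, 205, 270.2 and 297 CPM unstimulated, 179, 196, 222 and 239 CPM with TNF and 497, 599, 427 and 414 CPM with IL-1β (log2 difference -1.21, SE 0.22, adjusted p = 0.00107). PAPPA, a protease that releases insulin-like growth factors from their binding proteins, had 296, 208, 290.3 and 319.8 CPM and 711, 769.5, 596 and 566 CPM (log2 difference -1.24, SE 0.27, adjusted p = 0.00792). PAPPA, COLEC10, SAT1, CDH6, ITGA1, IGFBP5, DST, LXN and MLLT11, and on the TNF side AKR1B1, THBS1, PDLIM5, FILIP1L and DDAH1, are named here after their values were seen. The antisense gene PAPPA-AS1 was called in the same direction, and without stated strand the reads of the pair cannot be told apart. SAT1, the enzyme that acetylates polyamines for breakdown, rose with each cytokine to 1237, 1736, 1303 and 1243 CPM and 2451, 2799, 2986 and 2907 CPM (log2 difference -1.01, SE 0.22, adjusted p = 0.00707). Of the 7 ADAMTS genes tested ADAMTS5 alone differed (against 1.15% of genes tested), and the other 6 had log2 differences between -1.27 and 1.03.

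A larger share of the IL-1β-higher genes was lowered by TNF than raised by IL-1β. Of the 66, TNF lowered 39 (59.1%, against 6.09% of genes tested) and raised 11 (16.7%, against 5.37%). IL-1β raised 20 of the 66 (30.3%, against 3.46%) and lowered 8 (12.1%, against 3.92%). Of the 43 TNF-higher genes, TNF raised 20 (46.5%) and lowered 5 (11.6%). IL-1β lowered 16 of the 43 (37.2%) and raised 7 (16.3%), so a higher level with TNF did not always go with a rise by TNF. The contrast that chose the genes and these comparisons use the same TNF and IL-1β libraries, so the shares describe where the members lie and carry no test. MAF, a leucine zipper transcription factor, went from 49.5, 114, 101 and 73.1 CPM to 7.77, 10.3, 12.0 and 10.2 CPM with TNF and 40.4, 68.9, 32.4 and 33.1 CPM with IL-1β (log2 difference -2.11, SE 0.34, adjusted p = 0.000134). SHISA3, an antagonist of Wnt signalling, held at most 2.82 CPM in any TNF library. It lay at 18.2, 19.2, 8.89 and 10.4 CPM with IL-1β and at 32.8, 32.8, 51.4 and 38.9 CPM unstimulated (log2 difference -3.25, SE 0.59, adjusted p = 0.000916). GPR155, a lysosomal membrane protein, had 6.36, 6.03, 12.0 and 8.04 CPM with TNF and 26.2, 44.4, 17.1 and 18.8 CPM with IL-1β, from 23.0, 36.5, 37.3 and 31.4 CPM unstimulated (log2 difference -1.70, SE 0.43, adjusted p = 0.031), and lost its call without TNF replicates 1, 2 or 4 or IL-1β replicates 1 or 2 (adjusted p 0.0671 to 0.235). COLEC10, a collectin, held 18.4, 54.3, 40.5 and 35.4 CPM and 108, 115, 139 and 114 CPM below its unstimulated 192, 201, 373 and 305 CPM (log2 difference -1.69, SE 0.28, adjusted p = 0.00032). In each of these genes all IL-1β libraries were above all TNF libraries, and the highest TNF library was below every unstimulated one.

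Genes of adhesion, matrix and growth factor signalling were part of this TNF-lowered set. CDH6, a cadherin, had 192, 252, 152 and 162 CPM with TNF and 498, 661, 427 and 411 CPM with IL-1β (log2 difference -1.40, SE 0.30, adjusted p = 0.00788). ITGA1, a collagen-binding integrin subunit, held 262, 236, 173 and 188 CPM and 479, 469.9, 325 and 431 CPM (log2 difference -0.99, SE 0.20, adjusted p = 0.00278). IGFBP5, a carrier of insulin-like growth factors, stood at 592, 754, 599 and 664 CPM and 1372, 1529, 1164 and 1112 CPM (log2 difference -0.99, SE 0.22, adjusted p = 0.00839). Calls of the same sign were made for the TGF-β receptor TGFBR1 (-0.86, adjusted p = 0.00609), the matrix protein POSTN (-0.79, adjusted p = 0.0287) and VCAN, which encodes versican (-0.53, adjusted p = 0.0373). They were also made for the cytoskeletal linker DST (-0.84, adjusted p = 6.42e-05) and the carboxypeptidase inhibitor LXN (-1.04, adjusted p = 5.58e-05). Of the 25 TGF-β and BMP pathway genes tested, TGFBR1 and ID2 differed, against 1.15% of genes tested. ID2, an inhibitor of helix-loop-helix factors, rose with each cytokine and further with IL-1β (-0.98, adjusted p = 0.0145). The median log2 difference of the 25 was -0.137. Calls were lost for CDH6 without IL-1β replicate 2 (adjusted p = 0.0531), for IGFBP5 without IL-1β replicate 2 (adjusted p = 0.0531), for TGFBR1 without IL-1β replicate 1 (adjusted p = 0.0588) and for ID2 without TNF replicates 1 or 3 or IL-1β replicate 3 (adjusted p 0.0601 to 0.0972). They were further lost for POSTN without TNF replicates 1, 3 or 4 or IL-1β replicates 2 or 3 (adjusted p 0.0535 to 0.149) and in the fit of 12 (adjusted p = 0.0726) and for VCAN without any 1 of the 8 libraries except IL-1β replicate 4 (adjusted p 0.0515 to 0.167) and with all genes of any count (adjusted p = 0.203), in the fit of 8 (adjusted p = 0.0847) and in the fit of 12 (adjusted p = 0.146).

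TSLP had the largest difference among the TNF-higher genes. It encodes thymic stromal lymphopoietin, a cytokine of epithelium and stroma that acts on dendritic cells and type 2 lymphoid cells, and it lies on chromosome 5, 111070062 to 111078026. Its TNF libraries held 68.5, 104, 159 and 171 CPM, its IL-1β libraries 6.05, 6.63, 9.53 and 6.49 CPM and its unstimulated libraries 9.79, 18.2, 17.6 and 32.8 CPM. TNF was 17.4-fold above IL-1β (log2 difference 4.12, SE 0.50, adjusted p = 5.28e-07), every TNF library was above every unstimulated one and every IL-1β library below. Against unstimulated cells TNF raised it (log2 difference 2.69), and with IL-1β its log2 difference was -1.43 (adjusted p = 0.0695). The call held in all 15 alternatives.

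The chemokines CXCL10 and CXCL11, which attract activated T cells through CXCR3 and lie side by side within 20.3 kb of chromosome 4 (76021118 to 76041415), were higher with TNF. CXCL10 stood at 145, 158, 112 and 233 CPM with TNF and 32.3, 45.1, 58.5 and 27.9 CPM with IL-1β (3.98-fold higher with TNF, log2 difference 1.99, SE 0.52, adjusted p = 0.0407). CXCL11 stood at 15.5, 20.7, 4.50 and 64.8 CPM and 3.03, 0.663, 3.81 and 0 CPM, with the lowest TNF library just above the highest IL-1β library (log2 difference 3.76, SE 0.88, adjusted p = 0.0173). Of the third member CXCL9, TNF replicate 4 held 9.64 CPM and the other 7 libraries 0, and the difference did not pass. TNF replicate 4 also held 13.9 CPM of GBP5, which was at 0 in the other 7 libraries, and the highest level of CXCL11. CXCL10 lost its call without any 1 of the 8 libraries except TNF replicate 3 (adjusted p 0.0518 to 0.132) and with DESeq2 (adjusted p = 0.235). That of CXCL11 was lost without TNF replicate 4 or IL-1β replicates 2 or 4 (adjusted p 0.0655 to 0.181) and with DESeq2 (adjusted p = 0.209).

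CCL11, or eotaxin-1, which attracts eosinophils, held 502, 454, 261 and 264 CPM with TNF and 129.7, 156, 69.9 and 102 CPM with IL-1β, from 91.6, 66.3, 64.0 and 72.4 CPM unstimulated (3.23-fold, log2 difference 1.69, SE 0.30, adjusted p = 0.000619). IL32, a proinflammatory cytokine, rose from at most 6.37 CPM in unstimulated cells to 292, 192, 311 and 260.3 CPM with TNF and 72.7, 47.1, 41.3 and 58.4 CPM with IL-1β (4.80-fold, log2 difference 2.26, SE 0.43, adjusted p = 0.00156). Its lowest TNF library was more than 2 times its highest IL-1β library. No other CC chemokine was called. CCL2 was at 8779, 8707, 5966 and 6162 CPM and 5966, 6042, 5580 and 5908 CPM, with a 95% interval of the log2 difference of -0.15 to 0.82. CCL20, which attracts CCR6-bearing cells, lay the other way without passing, at 26.1, 34.5, 54.0 and 75.0 CPM with TNF and 108, 101, 246 and 244 CPM with IL-1β (adjusted p = 0.206). It passed in the fit of 8 (adjusted p = 0.00455), in that of 12 (0.0196) and with all genes of any count (0.000452).

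**Figure D3:**
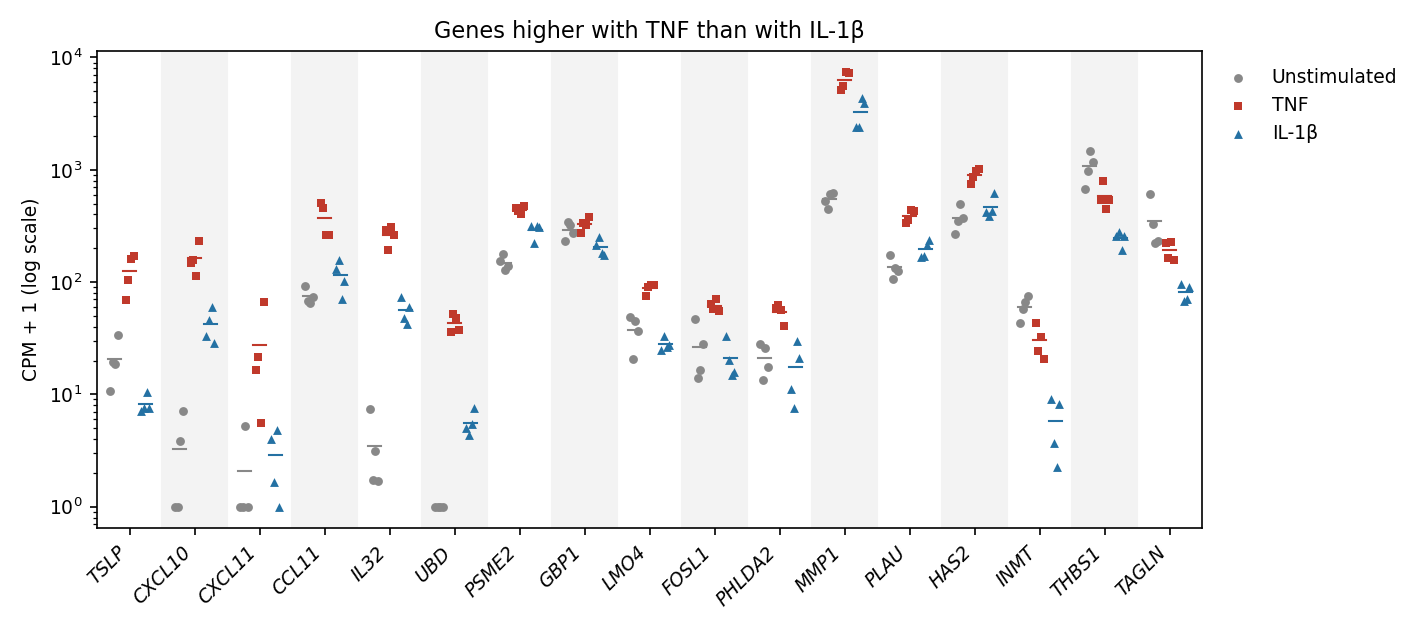
Level of 17 TNF-higher genes in each library, as CPM + 1 on a log axis, with 4 points per group (grey circles unstimulated, red squares TNF, blue triangles IL-1β) and a bar at each group's mean. TSLP, INMT, THBS1 and TAGLN have IL-1β triangles below the unstimulated circles, while CXCL10, IL32, UBD and MMP1 have them above.

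Of 21 genes of MHC class I presentation and the immunoproteasome, 19 had a higher fitted level with TNF, as did 4728 of the 9513 genes tested, and 2 were called, both higher with TNF (against 0.452% of genes tested). The median log2 difference was 0.433, against -0.00204 over all genes tested. UBD, which encodes the ubiquitin-like modifier FAT10, was at 0 in all unstimulated libraries, at 34.6, 50.8, 47.3 and 36.4 CPM with TNF and at 4.04, 3.31, 4.45 and 6.49 CPM with IL-1β (log2 difference 3.19, SE 0.81, adjusted p = 0.0418). OR2I1P overlaps UBD on the other strand of chromosome 6 (29550407 to 29557773 and 29555515 to 29559732) and had levels of the same order, 20.5, 31.9, 36.8 and 50.9 CPM and 3.53, 3.31, 3.81 and 4.54 CPM, so the source of these reads is uncertain. PSME2, a subunit of the proteasome activator, had 454, 428, 399.9 and 477 CPM and 314, 223, 313 and 311 CPM (log2 difference 0.60, SE 0.14, adjusted p = 0.0223). HLA-B rose with each cytokine and overlapped between them, with an interval of 0.06 to 0.81. UBD lost its call without any 1 of the 8 libraries (adjusted p 0.0589 to 0.165) and with DESeq2 (adjusted p = 0.177), and OR2I1P without any 1 of the 8 libraries except TNF replicate 1 (adjusted p 0.0521 to 0.141) and with DESeq2 (adjusted p = 0.0782). PSME2 lost it without TNF replicates 1 or 4 or IL-1β replicate 2 (adjusted p 0.054 to 0.164) and with all genes of any count (adjusted p = 0.131) and in the fit of 12 (adjusted p = 0.0713).

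Of interferon-stimulated antiviral genes, 45 were tested. The filter on low counts used all 44 libraries, so members can have entered through the interferon libraries. Members low in both groups cannot show a difference, and their number was not counted. The median log2 difference was 0. None was called higher with TNF (against 0.452% of genes tested), and 2 were called higher with IL-1β (against 0.694%). These were the DNA sensor IFI16, at 87.5, 82.7, 115 and 118 CPM with TNF and 199.8, 145, 176 and 186 CPM with IL-1β (log2 difference -0.81, SE 0.16, adjusted p = 0.00263), and SAMD9. The latter held 39.5, 55.1, 38.3 and 41.8 CPM and 85.8, 76.2, 88.3 and 88.8 CPM (log2 difference -0.96, SE 0.26, adjusted p = 0.0462). TNF lowered IFI16 against unstimulated cells (-0.84) and IL-1β had a log2 difference of -0.04. Of 5 guanylate-binding proteins, GBP1 alone was called, higher with TNF (against 0.452% of genes tested). It stood at 272, 338, 321 and 378 CPM against 213, 249, 179 and 172 CPM (log2 difference 0.69, SE 0.16, adjusted p = 0.0178), with 229.6, 341, 319 and 275 CPM unstimulated. Against unstimulated cells IL-1β lowered GBP1 (-0.52, adjusted p = 0.0383), and its log2 difference with TNF, 0.17, did not pass (adjusted p = 0.59). The GBP1 call was lost without TNF replicate 4 or IL-1β replicates 3 or 4 (adjusted p 0.0606 to 0.0743) and in the fit of 12 (adjusted p = 0.0502), and that of SAMD9 without any 1 of the 8 libraries (adjusted p 0.0501 to 0.16) and with DESeq2 size factors (adjusted p = 0.0505) and without unstimulated replicate 4 (adjusted p = 0.0534).

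Transcriptional regulators and other intracellular genes were also higher with TNF. LMO4, a LIM-only cofactor, held 74.8, 88.7, 92.3 and 93.7 CPM with TNF and 23.7, 31.8, 25.4 and 26.6 CPM with IL-1β (log2 difference 1.70, SE 0.27, adjusted p = 8.20e-05). FOSL1, an AP-1 subunit, held 62.1, 56.8, 69.0 and 54.1 CPM and 32.3, 19.2, 14.0 and 14.9 CPM (log2 difference 1.57, SE 0.38, adjusted p = 0.0212). PHLDA2 stood at 57.9, 61.1, 55.5 and 39.6 CPM and 10.1, 6.63, 28.6 and 20.1 CPM (log2 difference 1.71, SE 0.36, adjusted p = 0.00667). For all 3 the TNF libraries were above, and the IL-1β libraries within or near, the unstimulated range. INMT, an N-methyltransferase, was lowered by each cytokine but further by IL-1β, from 42.6, 56.1, 65.4 and 73.8 CPM to 42.4, 23.2, 31.5 and 19.8 CPM with TNF and 8.07, 2.65, 1.27 and 7.13 CPM with IL-1β (log2 difference 2.55, SE 0.34, adjusted p = 3.69e-06). The TRBC2 symbol, a constant segment of the T cell receptor, was at 31.8, 31.0, 65.3 and 71.8 CPM and 3.53, 9.28, 14.0 and 14.3 CPM (log2 difference 2.30, SE 0.39, adjusted p = 0.00032), in cells whose leukocyte markers summed to at most 17.2 CPM. DDAH1, which degrades methylated arginines, was at 0 in 3 IL-1β libraries and at 45.1 CPM in IL-1β replicate 2, and at 124, 79.2, 210.1 and 17.7 CPM with TNF, so that the groups overlapped. RALY, ZYX and TMEM119 were called at levels below 39 CPM, and their log2 differences were 2.18, 2.04 and 3.72. Calls were lost for FOSL1 without TNF replicate 3 or IL-1β replicates 2, 3 or 4 (adjusted p 0.0719 to 0.0919), for PHLDA2 without IL-1β replicate 2 (adjusted p = 0.0576) and for DDAH1 without TNF replicate 3 or IL-1β replicates 1, 3 or 4 (adjusted p 0.0685 to 0.108) and in the fit of 8 (adjusted p = 0.0749) and in the fit of 12 (adjusted p = 0.0764). They were also lost for RALY without TNF replicates 1 or 3 or IL-1β replicates 2, 3 or 4 (adjusted p 0.0775 to 0.158) and with all genes of any count (adjusted p = 0.059), in the fit of 8 (adjusted p = 0.0973) and in the fit of 12 (adjusted p = 0.129), for ZYX without any 1 of the 8 libraries except TNF replicate 1 and TNF replicate 4 (adjusted p 0.0827 to 0.221) and in the fit of 8 (adjusted p = 0.0537), in the fit of 12 (adjusted p = 0.0764) and with the replicate number as a block (adjusted p = 0.0502) and for TMEM119 without TNF replicates 2 or 3 or IL-1β replicates 1, 2 or 4 (adjusted p 0.0535 to 0.139).

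Extracellular matrix enzymes raised by TNF formed a further group. MMP1 was raised by IL-1β as well, with log2 differences from unstimulated cells of 3.52 with TNF and 2.58 with IL-1β. MMP1, interstitial collagenase, held 5087, 5534, 7354 and 7238 CPM with TNF and 2396, 2409, 4361 and 3906 CPM with IL-1β (1.93-fold, log2 difference 0.95, SE 0.25, adjusted p = 0.0455). HAS2, a hyaluronan synthase, stood at 751, 868, 976 and 1021 CPM and 417, 388, 428 and 615 CPM (1.96-fold, log2 difference 0.97, SE 0.24, adjusted p = 0.0295). PLAU, the plasminogen activator urokinase, was at 336, 357, 435 and 426 CPM and 168, 169.7, 214 and 238 CPM (1.97-fold, log2 difference 0.98, SE 0.21, adjusted p = 0.00772). None of these overlapped, and the IL-1β libraries of HAS2 lay in or near the unstimulated range of 265 to 497 CPM. MMP3 and MMP10 overlapped, with intervals of the log2 difference of -0.53 to 0.73 and -0.09 to 1.28. Of 12 metalloproteinases and inhibitors tested MMP1 alone was called, against 1.15% of genes tested. AKR1B1, aldose reductase, rose with each cytokine to 1395, 1125, 1762 and 1468 CPM and 698, 699, 900.2 and 758 CPM (log2 difference 0.91, SE 0.23, adjusted p = 0.0307). Calls were lost for MMP1 without any 1 of the 8 libraries except TNF replicate 1 and IL-1β replicate 3 (adjusted p 0.0501 to 0.232) and for HAS2 without TNF replicates 3 or 4 or IL-1β replicates 1, 2 or 3 (adjusted p 0.064 to 0.144). They were lost too for PLAU without IL-1β replicate 2 (adjusted p = 0.0503) and for AKR1B1 without any 1 of the 8 libraries except TNF replicate 2 and IL-1β replicate 3 (adjusted p 0.0511 to 0.137).

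Of 22 contractile genes 10 were lowered by IL-1β (against 3.92% of genes tested) and 6 by TNF (against 6.09%). A higher fitted level with TNF was seen in 17, and the median log2 difference was 0.527. Only TAGLN was called between the cytokines, against 1.15% of genes tested. TAGLN, an actin-binding protein of smooth muscle and myofibroblasts, went from 612, 327, 222 and 232 CPM to 219.6, 164, 225 and 155 CPM with TNF and 94.3, 66.3, 69.9 and 88.8 CPM with IL-1β (log2 difference 1.25, SE 0.33, adjusted p = 0.0409). MYL9 and MYLK, the myosin light chain and its kinase, did not overlap between the cytokines but missed the threshold, with log2 differences of 1.16 (adjusted p = 0.0573) and 0.91 (adjusted p = 0.0734). Both passed in the fit of 8 (adjusted p = 0.0225 and 0.0123), with the replicate number as a block (0.00419 and 0.00375), with DESeq2 (0.0208 and 0.0214) and with all genes of any count (0.00837 and 9.28e-05). MYL9 also passed without TNF replicate 4 (0.0421), and MYLK in the fit of 12 (0.0367). For ACTA2 the interval of the log2 difference was -0.19 to 1.36. The TAGLN call was lost without any 1 of the 8 libraries except TNF replicate 4 (adjusted p 0.0501 to 0.175).

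THBS1, thrombospondin-1, held 668, 984, 1468 and 1171 CPM unstimulated, 535, 792, 446 and 536 CPM with TNF and 256, 278, 193 and 255 CPM with IL-1β (log2 difference 1.23, SE 0.27, adjusted p = 0.00836). CCN2, connective tissue growth factor, stood at 208, 301, 175 and 177 CPM and 85.3, 132, 101 and 109 CPM (log2 difference 1.01, SE 0.22, adjusted p = 0.00683). CCN1 stood at 191, 166, 130.5 and 172 CPM and 89.3, 109, 107 and 64.2 CPM (log2 difference 0.83, SE 0.16, adjusted p = 0.00214). In these genes every IL-1β library was below every TNF and every unstimulated library. PDLIM5, a LIM protein of actin filaments, and FILIP1L showed the same order, with log2 differences of 0.92 (adjusted p = 0.000609) and 0.99 (adjusted p = 6.66e-05). Of 26 collagens and fibrous matrix genes, COL6A3 alone was higher with TNF (0.55, adjusted p = 0.0364) and POSTN alone with IL-1β. The shares over all genes tested were 0.452% and 0.694%. TNF lowered 13 of the 26 (against 6.09% of genes tested) and IL-1β 9 (against 3.92%). The proteoglycan LUM was higher with TNF (0.57, adjusted p = 0.039). Calls were lost for CCN2 without TNF replicate 2 (adjusted p = 0.0535) and for COL6A3 without any 1 of the 8 libraries except TNF replicate 2 and IL-1β replicate 3 (adjusted p 0.0653 to 0.154) and with all genes of any count (adjusted p = 0.228), in the fit of 8 (adjusted p = 0.101) and in the fit of 12 (adjusted p = 0.135). The LUM call was lost without any 1 of the 8 libraries except TNF replicate 3 and IL-1β replicate 2 (adjusted p 0.0611 to 0.099) and with all genes of any count (adjusted p = 0.0615) and in the fit of 12 (adjusted p = 0.109).

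**Figure D4:**
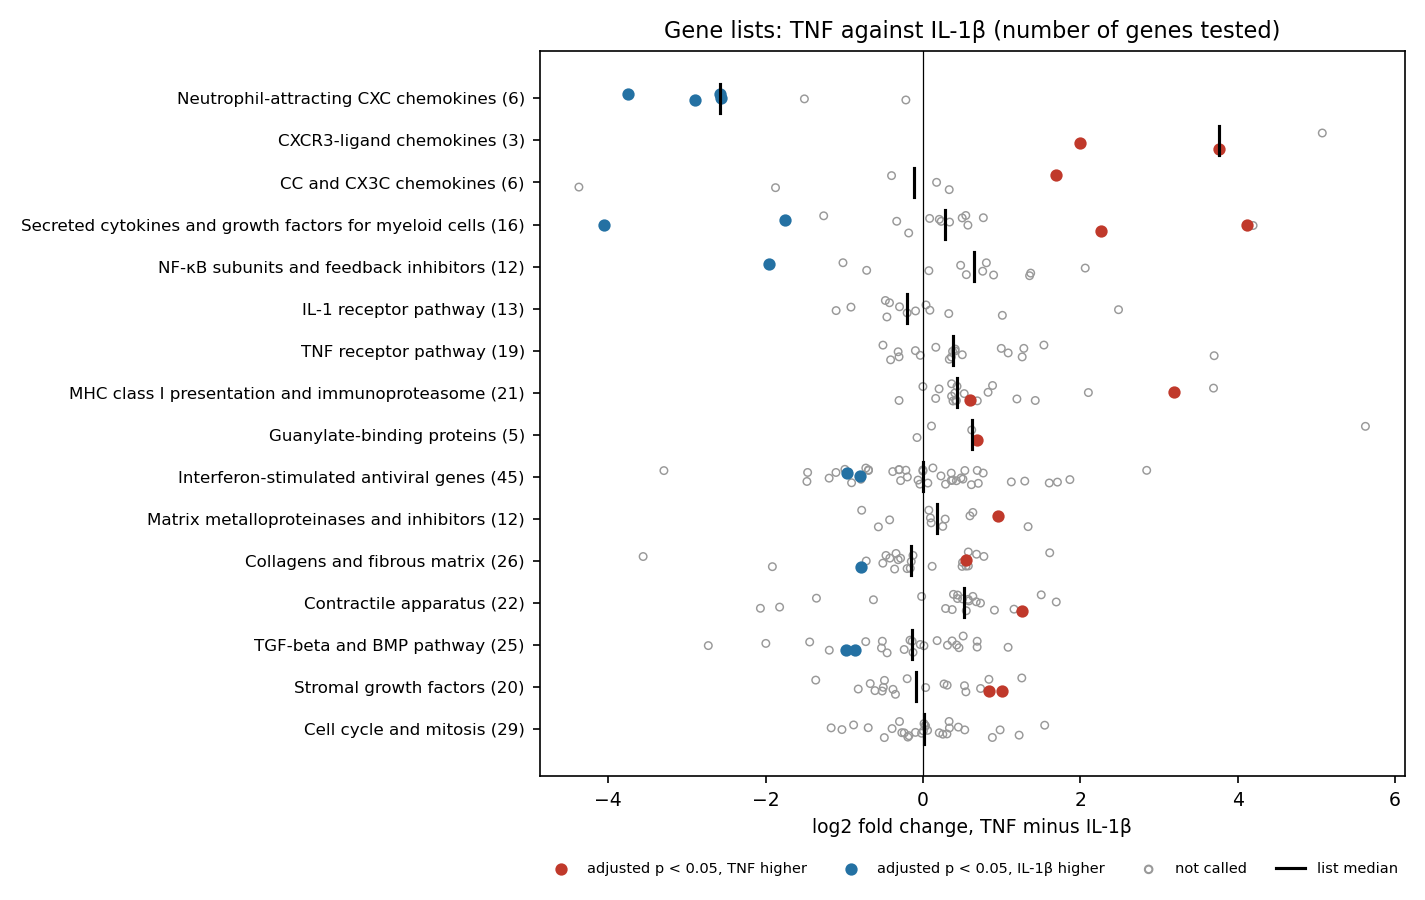
Log2 difference (TNF minus IL-1β) of each tested gene in 16 gene lists, with the number tested in brackets, filled red points called higher with TNF, filled blue points called higher with IL-1β, open points not called, and a black bar at the list median. The neutrophil-attracting chemokines have a median of -2.58 and lie left of 0, the class I presentation genes have a median of 0.433, and the cell cycle genes one of 0.0138 with none called.

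The receptors and their pathways did not separate the cytokines at this threshold. None of 13 genes of the IL-1 receptor pathway and none of 19 of the TNF receptor pathway was called, against 1.15% of genes tested. Their median log2 differences were -0.2 and 0.376. IL1R1 stood at 24.0, 25.8, 21.0 and 40.2 CPM with TNF and 35.8, 49.7, 72.4 and 53.8 CPM with IL-1β (adjusted p = 0.215), and TNFRSF1A, which encodes TNFR1, at 12.0, 11.2, 5.25 and 6.96 CPM and 4.04, 13.3, 14.0 and 13.0 CPM. BIRC3, a ubiquitin ligase of the TNF receptor complex and itself an NF-κB target, held 724, 948, 712 and 1038 CPM with TNF and 244, 238, 351 and 347 CPM with IL-1β. Its libraries did not overlap and its log2 difference was 1.54 (SE 0.44), and it did not pass in the fit of all libraries (adjusted p = 0.0743). It passed in the fit of 8 (adjusted p = 6.47e-05), in that of 12 (0.0473), with all genes of any count (6.09e-09), with the replicate number as a block (0.0494) and without unstimulated replicate 4 (0.0303). ICAM1, a leukocyte adhesion molecule, was at 34.6, 20.7, 23.3 and 26.2 CPM and 3.03, 5.96, 1.27 and 8.43 CPM without overlap, and did not pass (adjusted p = 0.22). It passed in the fit of 8 (adjusted p = 0.00777), in that of 12 (0.0345) and with all genes of any count (0.0428). PTGS2, the inducible cyclooxygenase, rose with each cytokine and overlapped between them, at 477, 905, 935 and 1688 CPM with TNF and 1550, 1713, 2598 and 2437 CPM with IL-1β (adjusted p = 0.473), and passed only with all genes of any count (1.28e-05). The transcript of IL1B itself rose with each cytokine, to 351, 452, 509 and 434 CPM with TNF and 317, 371, 670.2 and 621 CPM with IL-1β, with an interval of -1.28 to 0.92. The TNF transcript was at 0 in all 12 libraries, where the 3 counts that a count of 0 allows correspond to 1.47 to 2.58 CPM, for counting error only.

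The separating genes were then looked up after IFNα, IFNγ and IL-17A, whose libraries took no part in the direct contrast. These comparisons share the unstimulated libraries with each other. Of the 43 TNF-higher genes, IFNα raised 16 (37.2%, against 4.99% of genes tested) and lowered 0 (against 4.86%), and IFNγ raised 15 (34.9%, against 5.52%) and lowered 4 (9.3%, against 5.13%). Of the 66 IL-1β-higher genes, IFNα raised 7 (10.6%) and lowered 15 (22.7%), and IFNγ raised 5 (7.58%) and lowered 21 (31.8%). UBD and OR2I1P, whose reads may come from the same gene, are both among the 43 and both raised by IFNγ. PAPPA and PAPPA-AS1 are both among the 66, so a shared signal can enter these shares more than once. The filter on low counts used all 44 libraries, so a gene can have entered through another group. CXCL11 and TMEM119 did not pass it in the 12 TNF, IL-1β and unstimulated libraries and were not tested in the fits of 8 and of 12. Of the other 41 TNF-higher genes, IFNα raised 15 (36.6%, against 5.02% of genes passing) and IFNγ 14 (34.1%, against 5.69%), a count added after seeing the data. CXCL10 had a log2 difference of 11.50 with IFNα, GBP1 had 2.81, IL32 3.46 and CCL11 3.26. The values of GBP1, IL32 and CCL11 with IFNγ were 4.87, 5.08 and 1.77. TSLP was lowered by IFNγ (-2.51, adjusted p = 0.00168).

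IL-17A raised 10 of the 66 IL-1β-higher genes (15.2%, against 0.599% of genes tested) and lowered 1 (1.52%, against 0.925%), and of the 43 TNF-higher genes it raised 0 and lowered 9 (20.9%). Those raised were CXCL1 (4.26), CXCL6 (3.59), NFKBIZ (2.81), CXCL3 (2.43), DIO2 (1.45), ID2 (1.10), ADAMTS5 (1.09), SAT1 (1.00), LXN (0.94) and MLLT11. Those lowered included TAGLN (-1.29), CCN1 (-0.67), PDLIM5 (-0.67), FILIP1L (-0.61) and GBP1 (-0.59). IL6 and CXCL2 had log2 differences with IL-17A of 1.59 and 2.27 that did not pass (adjusted p = 0.147 and 0.0961).

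**Figure D5:**
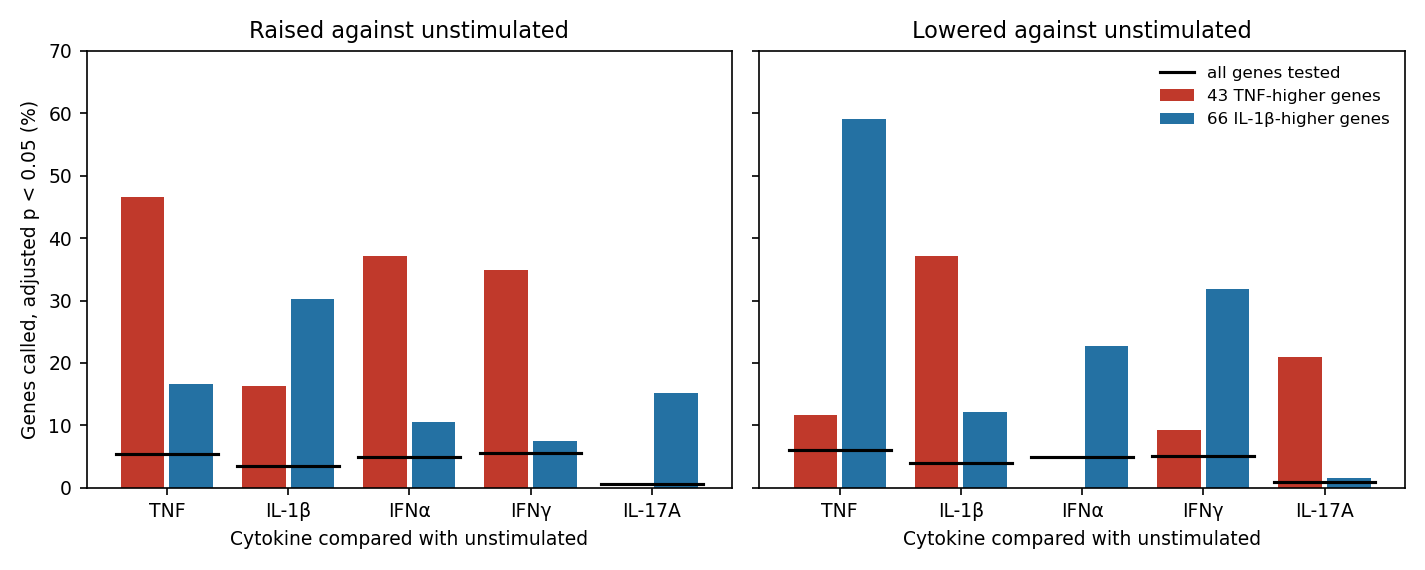
Percent of the 43 TNF-higher genes (red bars) and the 66 IL-1β-higher genes (blue bars) called at adjusted p under 0.05 as raised (left) or lowered (right) by each of 5 cytokines against unstimulated cells, with a black line at the percent of all 9513 genes tested. For IFNα and IFNγ the red bars stand above the line on the left (37.2% and 34.9%) and the blue bars on the right (22.7% and 31.8%). The blue bars on the left (10.6% and 7.58%) lie nearer the line (4.99% and 5.52%). On the right the red bar for IFNγ is 9.3% (line 5.13%), and IFNα lowered 0 TNF-higher genes. For IL-17A the blue bar is above the line on the left (15.2%) and the red bar on the right (20.9%). The blue bar on the right (1.52%) is 1 gene and near the line (0.925%).

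Genes raised or lowered by each cytokine were compared between them last. At both thresholds TNF raised 1.85% and lowered 2.34% of genes tested, and IL-1β raised 1.47% and lowered 1.30%. Of these genes 97 were raised by each cytokine and 75 lowered by each, in comparisons that share their controls. Between the cytokines 12 of the 97 and 1 of the 75 were called, against 1.15% of genes tested, and since these genes were picked with the same libraries this is a description. No gene was raised by either cytokine and lowered by the other at an adjusted p under 0.05. For 17 of the 97 and 14 of the 75 the 95% interval of the direct log2 difference lay within -1 to 1, as it did for 3653 of all genes tested (38.4%). The 5 raised ones with the highest CPM were CCL2, TFPI2, MMP3, IL33 and SOD2. SOD2, mitochondrial superoxide dismutase, held 2612, 3520, 2549 and 2601 CPM with TNF and 3351, 2512, 3605 and 3587 CPM with IL-1β (interval -0.74 to 0.32). IL33, an alarmin, held 1546, 2069, 1806 and 2338 CPM and 1650, 1909, 2016 and 1741 CPM (interval -0.50 to 0.67). Among the lowered ones CLDN11, a claudin, had an interval of -0.87 to 0.20 and NUPR1, a stress-response gene, -0.47 to 0.51. The median half-width of the interval, which is not adjusted for the number of genes, was 0.809 on the log2 scale. A call also had to pass the adjustment over all genes tested. Differences of this size or smaller were thus not detectable for most genes with these libraries.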

How the data were processed

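Bulk RNA-seq libraries of Ccd-18Co cells (RNA isolated with Qiagen or Zymo kits, NEBNext Ultra II libraries, NovaSeq) were compared. The table deposited by the authors holds estimated counts per gene, from kallisto 0.48.0 with the genome build hg38 named in the submitters' processing notes, which also name FastQC 0.11.9 and MultiQC 1.14. The transcriptome release, strand setting and gene summarisation are not given in the sources used here. Values not whole (5.77%) were rounded.

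Here 9513 of 40663 symbols passed edgeR's filterByExpr and were fitted in edgeR 4.0.16 (R 4.3.3) with TMM normalization and a quasi-likelihood model of all 44 libraries in 11 groups, which share an estimate of the spread. Tests were two-sided, with Benjamini-Hochberg adjustment over all genes tested. Calls were made at an adjusted p under 0.05, and at both thresholds also with an absolute log2 difference above 1.5. CPM are counts scaled to a common TMM-adjusted library size. They are not per length and give no order between genes. Intervals are 95%, and they and the counting limits cover the spread between libraries and counting error only. The distance used log2 CPM with a prior count of 2. The method was tested on simulated data. Alternatives were DESeq2 1.42.0 and its size factors, other filters, fewer libraries, a replicate block, another fold threshold and leaving out each library. Leaving out unstimulated replicate 4, and counts over genes passing the filter in 12 libraries, were chosen after seeing the data.

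The genes and lists were chosen with earlier results of these data known. Named were, per direction, up to 15 non-overlapping genes with the largest differences at both thresholds and a mean log2 CPM of at least 1, every called member of a gene list, up to 4 further members of highest CPM in a list, the ligands and receptors, and up to 5 genes moved alike. Exceptions are stated. Promoter windows came from RefSeq (GRCh38.p14) and gene positions from GENCODE 44.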

Additional observations from a re-analysis of the deposited data

Results flagged for a closer look

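In 24 of 252 groups of 4 libraries, a value stood apart from the other 3 by more of the group's range than Dixon's 95% limit, where chance gives about 1 in 20 groups.

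Unstimulated replicate 4 accounted for 9 of them, in genes raised by inflammation. It held 166 CPM of CXCL1 (28.1 to 44.1 in the other libraries of its group), 25.3 of CXCL2 (0 to 0.49), 107 of CXCL3 (2.92 to 19.7) and 554 of CXCL8 (19.7 to 85.1). It also held 26 CPM of IL6 (1.41 to 5.1), 23.9 of BIRC3 (0.704 to 2.45), 2.73 of CCL20, 1.37 of CSF3 and 3.42 of SERPINB7, the last 3 at 0 in the other libraries of its group. This library is in none of the direct contrasts, and its part in the differences from unstimulated cells was not tested gene by gene. In other unstimulated libraries, replicate 3 held 4.22 CPM of CXCL11 (0 in the others) and 4.22 of TNFAIP3 (0 to 0.49), and replicate 1 held 117 of MYL9 (42.9 to 54.7).

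Among the TNF libraries, replicate 4 held 8.03 CPM of SERPINB7 (0 to 0.706). Replicate 3 was low in STEAP2 (50.3 against 95.9 to 99.9 CPM) and TGFBR1 (75 against 96.5 to 99.6). Replicate 2 held 1740 CPM of SAT1 (1240 to 1300), 264 of COL6A3 (333 to 339) and 3520 of SOD2 (2550 to 2610).

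Among the IL-1β libraries, replicate 1 had the largest total (2100000 against 1620000 to 1660000 counts, rounded) and 4.04 CPM of TNFRSF1A (13 to 14). Replicate 2 held 4950 CPM of DIO2 (4340 to 4440), 45.1 of DDAH1 (0 in the others) and 223 of PSME2 (311 to 314). Replicate 3 held 9.53 CPM of TSLP (6.05 to 6.63).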

How the results depend on the processing

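Of 1324 pairs of a gene with values in the text and an alternative, 1122 kept direction and side of the threshold, 167 lost the call, 27 gained it and 8 changed sign. The sign changed in genes never called. Without 1 library in turn, the log2 difference of IL33 was -0.000316 to 0.188 (lowest without TNF replicate 4), of MMP3 -0.031 to 0.285 (lowest without TNF replicate 4), of IL1B -0.328 to 0.0144 (highest without IL-1β replicate 3) and of NUPR1 -0.199 to 0.228 (below 0 without TNF replicate 1 or 2 or IL-1β replicate 3 or 4). With the replicate block NUPR1 was at -0.00142. TNF-higher and IL-1β-higher counts were 76 and 101 with the DESeq2 Wald test (2029 genes without an adjusted p) and 78 and 149 over all 23518 genes with any count. At both thresholds the latter gave 36 and 42, and a log2 limit of 1 gave 41 IL-1β-higher genes. Without 1 library the counts were 18 to 40 and 35 to 63, at both thresholds 8 to 15 and 14 to 20. Against unstimulated cells they were 362 to 565 raised and 417 to 638 lowered by TNF, 257 to 339 raised and 273 to 349 lowered by IL-1β, and 89 to 102 raised by each, and the distance was 23.21 to 24.17. The cause of these shifts was not tested.

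Over all genes tested, same-numbered TNF and IL-1β libraries deviated with correlations of 0.0257, 0.0448, 0.0372 and -0.00098. The numbers were not read as pairs, although such correlations cannot exclude an order shared in some genes. In MMP1, replicates 3 and 4 were above replicates 1 and 2 with each cytokine, and in CCL11 they were below. How many genes share such an order was not counted. With the replicate number as a block 137 genes were called, 108 of them among the 109, and MYL9, MYLK, CXCL5 and BIRC3 gained a call. The fits of 8 and 12 libraries called 155 and 97, of which 88 and 75 were among the 109. Without unstimulated replicate 4 the counts were 45 and 66, at both thresholds 19 and 19, and CXCL5 (adjusted p = 0.0324) and BIRC3 (0.0303) were also called.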
